A study of Mus musculus with 400 samples.

Results

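The alpha-defensin gene family was described in single cells sorted for high Lgr5 from the small intestine of mice. Members were all genes of the count table whose mouse symbol starts with Defa followed by a digit, by -ps or by -rs, and 31 of the 33496 genes met this rule. Of these, 20 are annotated as protein-coding and 11 as pseudogenes, which are decayed gene copies. GENCODE M21 annotates 39 genes by the rule, and 8 of them are not analysed here. A further 6 genes are called alpha-defensins in RefSeq but carry other symbols in GENCODE. They are AY761184 (Defa39 in RefSeq), Gm14851 (Defa38), Gm7849 (Defa42), Gm15292 (Defa40), Gm15293 (Defa41) and Gm7861 (Defa43), and they stayed outside the family.

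Alpha-defensins are small cationic antimicrobial peptides, folded by disulfide bonds between cysteines, that break bacterial membranes. In the mouse small intestine they are made by Paneth cells, which sit between the Lgr5+ stem cells at the crypt base and release them from dense granules, and they are also called cryptdins there. They are made as inactive precursors with a signal peptide, an acidic pro-segment and the mature peptide at the end, and in the mouse the protease matrilysin, the product of Mmp7, cleaves them to the active form.

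The series holds 400 single cells of 1 group, Lgr5-high cells of Lgr5 GFP/+ mice, in which a green fluorescent protein and a tamoxifen-inducible Cre (Lgr5::EGFP-IRES-Cre-ERT2) sit at the Lgr5 locus. Crypt cells came from the duodenum and jejunum, dead cells were left out with DAPI, and cells were sorted by flow cytometry and captured in microfluidic chambers. The mice were matched for age and sex, with no age given, and a tamoxifen dose in the labels is for lineage tracing and is not tied to these cells. Since no label ties a cell to an animal, all cells count as 1 sample, there was no replicate check between mice, and no test was made. The cells fall into 10 library sets of 40 cells, numbered in the sample titles, and every standard deviation (SD) is over these sets, which are a technical split. The analysis kept 380 cells with at least 10000 counts, 36 to 39 per set, with totals of 10766 to 70133 and a median of 32112. No 2 cells had identical columns. The 40 barcode numbers recur in every set, and the 400 pairs of set and barcode were all different. Lgr5, the Wnt pathway receptor that marks crypt base stem cells, had a count in 97.9% of kept cells. No value in the table was above 36 counts, and the 2 leading alpha-defensins reached 33 in their highest cell. Whether this maximum lowers ratios between abundant genes was not tested.

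The protein-coding members share most of the start of their coding sequence and differ towards its end. The last 60 coding bases, stop codon included, encode the end of the precursor. They are shown for the members that lead the family and for examples of the other end sequences. They are printed 5′ to 3′ from GENCODE M21 transcripts, and capitals mark the bases that differ from Defa24, compared position by position back from the stop codon with no gaps.
Defa24: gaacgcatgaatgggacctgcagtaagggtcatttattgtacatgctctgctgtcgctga
Defa30: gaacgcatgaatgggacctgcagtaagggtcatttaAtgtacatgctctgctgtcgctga
Defa17: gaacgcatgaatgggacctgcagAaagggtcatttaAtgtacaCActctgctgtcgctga
Defa31: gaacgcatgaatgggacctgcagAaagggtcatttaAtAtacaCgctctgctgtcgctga
Defa22: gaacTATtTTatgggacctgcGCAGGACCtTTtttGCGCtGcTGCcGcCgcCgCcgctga
Defa5: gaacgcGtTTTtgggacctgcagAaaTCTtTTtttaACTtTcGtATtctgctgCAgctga
Defa29: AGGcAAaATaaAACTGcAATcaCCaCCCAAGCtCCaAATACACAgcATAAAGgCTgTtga
Defa2: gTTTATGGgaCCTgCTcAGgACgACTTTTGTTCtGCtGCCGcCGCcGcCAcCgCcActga
Defa30 differed from Defa24 at 1 of the 60 bases, Defa17 and Defa31 at 4 each, Defa5 at 19, Defa22 at 27, Defa2 at 41 and Defa29 at 43. Without gaps, an inserted or lost base triplet counts as many differences, and the coding sequences of Defa2 and Defa29 are longer than that of Defa24. Whether the annotated end of Defa29 encodes an alpha-defensin peptide was not tested. In transcripts aligned with gaps, the aligned part was 86.2% identical to Defa24 for Defa2, 84.1% for Defa22, 83.2% for Defa5 and 78.1% for Defa29. Bases in gaps or beyond the ends of the other transcript are not counted in this. The last 60 bases of Defa3 were those of Defa17, and those of Defa23 were those of Defa31. Defa21 shared them with Defa22. Defa34, Defa35 and Defa36 shared them with Defa5, and Defa32 and Defa33 with Defa2. The first 60 coding bases, which encode the signal peptide and the start of the pro-segment, were closer to each other in the same ungapped comparison: the 19 other protein-coding members differed from Defa24 at a median of 4 bases there, against a median of 19 in the last 60. In 18 of the 19 the last window held more differences than the first. Defa27 was the exception, with 32 differences in the first window and 5 in the last, and its annotated coding sequence is shorter than that of Defa24. The first 60 bases of Defa24 and Defa30 were identical.
Defa24 and Defa30: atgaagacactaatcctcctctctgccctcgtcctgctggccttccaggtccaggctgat

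Every kept cell had counts of alpha-defensin genes. The summed family had 23618 of 12170416 counts, or 0.194%, and averaged 2206 CPM (counts scaled to the same total in every cell) over the 380 cells, with a mean of 2217 ± 721 CPM over the 10 library sets (SD). Over cells it lay at 330 CPM in the lowest, 1442 in the median and 23770 in the highest cell. Ranked by counts, the lowest, median and highest cell had 7, 44 and 436. The highest cell was 16.5-fold above the median. A cell had counts of 2 to 24 different members, with a median of 8. After each cell was thinned at random to 19169 counts, so that depth was equal, every cell still held family counts, with 4 in the lowest and 27 in the median cell. The 38 kept cells that were too shallow for this were left out, here and in each thinned value.

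Of the members, 2 had a count in all kept cells, 7 in at least 50% and 13 in at least 25%. Another 10 lay between 5% and 25%, and 8 lay below 5%. Pseudogenes carried 2.48% of the family's counts. Levels of different members are compared as CPM per kb of exon, given as the mean and SD over the 10 sets. Whether reads cover whole transcripts or one end is not given in the sources used here, and the first 5 members stand in the same order without the scaling by length.

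Defa24 (ENSMUSG00000064213.5; GRCm38 chromosome 8, 21734494 to 21735471, plus strand) was the leading member. It had 4 counts in the lowest, 18 in the median and 33 in the highest cell, and its set means were 428.8 CPM in the lowest, 649.5 in the median and 766 in the highest set. No kept cell was without a count of it. It alone held 29.7% of the family's counts, between 24.4% and 41% in single sets. In the whole table, 52 genes had a higher mean count, and 260 genes had a count in every kept cell.

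Defa30 (ENSMUSG00000074444.4; 21134642 to 21135598, plus strand) was next, with 1, 12 and 33 counts in the lowest, median and highest cell. Its set means were 214.8 CPM in the lowest, 451.4 in the median and 604.4 in the highest set. Together with Defa24 it held 49.9% of the family's counts. Per kb of exon, Defa24 reached 1518 ± 283.9 CPM and Defa30 1083 ± 306.4 CPM. The difference of 434 ± 102.1 CPM per kb was larger than its spread and had the same direction in 10 of 10 sets.

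Defa17 (ENSMUSG00000060208.5; 21655780 to 21656735, plus strand) was the first member without a count in some cells. It had a count in 93.4% of them (95% exact Clopper-Pearson interval 90.4 to 95.7), and 0, 6 and 32 counts in the lowest, median and highest cell. The intervals here and below cover counting error only. Its set means were 128.9 CPM in the lowest, 325.3 in the median and 395.5 in the highest set. At 728 ± 239.2 CPM per kb it lay below Defa30 in 10 of 10 sets, by 354.96 ± 116.7. With Defa17 the 3 leading members held 63.2% of the counts.

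The level then dropped to Defa29 and Defa3. Defa29 (ENSMUSG00000074437.5; 21325887 to 21327020), 1 of 2 members on the minus strand, had a count in 81.8% of cells (77.6 to 85.6) and 280 ± 122.7 CPM per kb, with set means of 51.96 CPM in the lowest, 151.8 in the median and 224.97 in the highest set. Its gene span contains the small RNA gene Gm23561, and no exon of any member overlaps an exon of another gene. Defa3 (ENSMUSG00000074440.3; 21287409 to 21288377, plus strand) had a count in 67.4% of cells (62.4 to 72.1) and 271.5 ± 113.3 CPM per kb, with set means of 55.98 CPM in the lowest, 102.4 in the median and 183.2 in the highest set. Defa17 was above Defa29 in 10 of 10 sets, by 450 ± 136.6 CPM per kb. Defa29 and Defa3 could not be ordered: they differed by 9.33 ± 50.2 CPM per kb, with 6 of 10 sets in that direction.

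The following 9 members overlapped in level and descended gradually. In CPM per kb they were Defa25 (240 ± 146.3), Defa31 (190.7 ± 98.7), Defa26 (181.99 ± 76.8), Defa23 (178.97 ± 90.3), Defa22 (133.1 ± 75.8), Defa21 (121.99 ± 72.95), Defa27 (99.2 ± 59.99), Defa35 (88.98 ± 50.2) and Defa28 (82.5 ± 42.6). Only the step between Defa23 and Defa22 was larger than its spread (45.7 ± 41.95, 9 of 10 sets), and the other adjacent pairs among these 9 did not differ beyond it. A count was found in 53.2% of cells for both Defa23 and Defa26, in 47.6% for Defa25, 46.1% for Defa22, 40.5% for Defa21, 39.5% for Defa31, 33.2% for Defa35, 32.4% for Defa27 and 24.2% for Defa28. A gene with a count in some cells reached many in a few: Defa25 had none in the median cell and 28 in the highest.

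The remaining members above 5% of cells lay between 11.4 and 67.7 CPM per kb. The pseudogenes Defa-ps7, Defa-ps10, Defa-ps4, Defa-ps1, Defa-ps6 and Defa-ps18 lay at 19.8 to 67.7 CPM per kb, and the protein-coding Defa5, Defa34 and Defa36 at 62.1, 27.2 and 11.4. Defa36 was above Defa2 by 6.28 ± 5.98 CPM per kb, in 8 of 10 sets, and no other adjacent pair in this lower part of the order differed beyond its spread. The 8 members below 5% of cells were Defa2, Defa32, Defa33, Defa-ps3, Defa-ps12, Defa-ps13, Defa-ps16 and Defa-ps17, with 1 to 19 counts each. All 14 counts of Defa32 came from 2 cells. Defa-ps12 and Defa-ps13 also carry beta-defensin names in RefSeq (Defb46-ps and Defb54-ps) and lie apart from the other members.

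**Figure D1:**
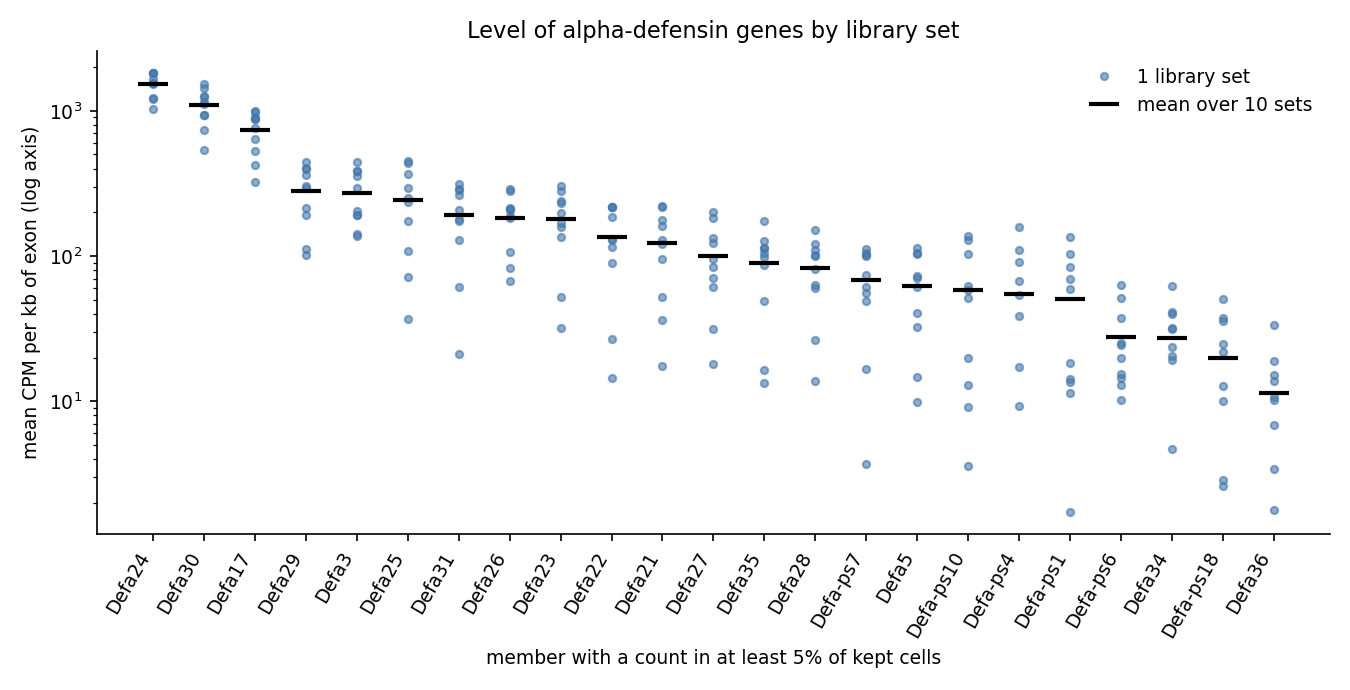
Mean CPM per kb of exon (log axis) of the 23 alpha-defensin genes found in 5% of kept cells or more, by library set. Points are the 10 sets, bars the mean over them, and sets at 0 are not drawn. Defa24, Defa30 and Defa17 average 1518, 1083 and 728, and the members from Defa29 on overlap their neighbours.

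The beta-defensins, a related family that many epithelia make, were sparse in the same cells. The 31 alpha-defensins had 23618 counts, and the 31 beta-defensin genes had 1331. Of the beta-defensins, Defb41 held 686 counts and had a count in 67.9% of cells, and Defb1 was next with 84 counts.

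The family level differed between library sets. Set means of the summed family were 2725, 2131, 2780, 1233, 1041, 2021, 1686, 3092, 2475 and 2988 CPM in sets 1 to 10. Sets 4 and 5 were the lowest and sets 8 and 10 the highest. Set medians ran from 767 CPM in set 5 to 2166 CPM in set 8, a 2.82-fold range. Median totals, 29070 to 37769 counts per set, did not follow this order: set 5, with the lowest family median, had 33079, and set 8, with the highest, had 31801. Lyz1, the Paneth cell lysozyme, averaged 117.2 CPM in set 5 and 343.3 CPM in set 8, and Itln1, a lectin of Paneth cell granules, 142.8 and 366.8 CPM. Lgr5 averaged 200.2 CPM in set 5 and 193.9 CPM in set 8. What set the library sets apart was not tested, and without sets 4 and 5 the family averaged 2482 CPM.

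The lowest cell of a set moved with its set. It had 330 CPM of the family in set 5 and 376.6 CPM in set 4, and 855, 903 and 951 CPM in sets 8, 9 and 10. As background for a count in a cell, the marker genes of other cell types were counted in the same 380 cells. Leukocyte genes were found in 0.263% (Cd8a), 0.789% (Cd79a), 10.3% (Cd3e), 28.4% (Ptprc) and 31.1% (Cd52) of cells. Genes of stroma and endothelium were found in 2.89% (Col1a1), 5.53% (Col3a1), 33.4% (Emcn) and 44.5% (Pecam1). Enteroendocrine genes lay between 2.63% for Tac1 and 13.7% for Chgb, with Chga, Sct, Cck and Neurog3 at 5.00% to 5.53%. These leukocyte, stromal, endothelial and enteroendocrine genes thus reached at most 44.5%.

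The tuft, enterocyte and goblet lists reached further. Tuft cell genes lay at 13.2% (Trpm5), 16.3% (Rgs13), 57.1% (Dclk1) and 85.5% (Pou2f3). Enterocyte genes lay at 4.74% (Alpi), 20.5% (Apoa1), 22.4% (Lct), 39.2% (Anpep), 52.9% (Fabp1) and 97.1% (Fabp2). Goblet cell genes lay at 6.58% (Ccl9), 12.9% (Clca1), 32.6% (Muc2), 45.8% (Fcgbp), 62.4% (Zg16), 73.7% (Agr2), 84.2% (Tff3) and 95.3% (Spink4). Only Defa24 and Defa30, at 100%, lay above every gene named here. Defa17, at 93.4%, lay below Fabp2 and Spink4, and all other members lay below at least 4 of these genes. A share within or above this range is not by itself evidence that those cells express the gene. The genes named here were not matched to the members in level. Whether RNA from outside the captured cell gave part of the counts in every cell was not tested.

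The level per cell also moved with depth. In tertiles of total counts, the median family level was 1679 CPM in the shallowest, 1411 in the middle and 1229 in the deepest cells, while median family counts were 38, 46 and 52. The 20 cells under 10000 counts, left out above, had a median of 3951 CPM (1432 to 19520). Over all kept cells the Spearman correlation of family CPM with total counts was −0.265, with CPM and total sharing the same denominator. For family counts of cells thinned to equal depth, the correlation with total counts before thinning was −0.176.

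A few cells held far more than the rest. The 38 cells with most family counts, 10% of the kept cells, held 30.8% of them. This share was 15.4% for Defa24, 20.5% for Defa30, 28% for Defa17, 36.9% for Defa29 and 47.7% for Defa3. It was 24.3% for 13 other Paneth granule products summed, 29.1% for Lyz1 and 21.1% for Lgr5. Without Defa24 and Defa30 it was 44.4% for the family. Of these 5 members, the 2 with a count in every cell had the lowest shares. The share rose as the mean count fell, from 18.5 for Defa24 to 3.01 for Defa3. How far counting noise or the maximum of the table sets this order was not tested.

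Above 10000 CPM of the family lay 9 cells, the lowest at 11750 CPM, and the next cell below had 9380 CPM. They came from 8 library sets, with at most 2 in a set, and held 12.4% of all family counts. Each had counts of 18 to 24 members. Their totals were 11571 to 25902 counts, all under the median of kept cells. The total is the denominator of CPM, so a choice of cells by CPM itself favours low totals. Of the 9, 8 had at least 1 Lgr5 count, and none had more than 8. Their summed level of the 13 other granule products was 4493 to 11490 CPM. Without these 9 cells the family averaged 1844 CPM and the top 10% of cells held 25.5% of its counts.

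**Figure D2:**
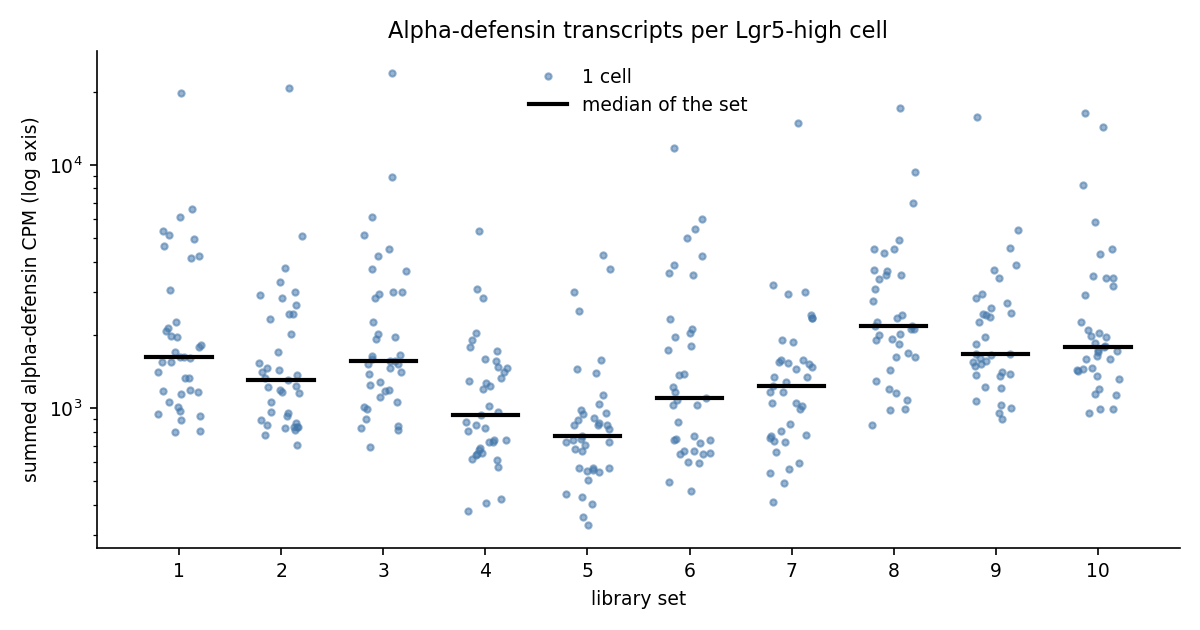
Summed alpha-defensin CPM (log axis) of each of the 380 kept cells, by library set. Points are cells, spread sideways at random within a set, and bars the set medians. Medians lie between 767 (set 5) and 2166 CPM (set 8), and 9 cells lie above 10000 CPM.

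The family was then set beside the other products of Paneth cells. Over the thinned cells, summed family counts and summed counts of the 13 granule products had a Spearman correlation of 0.650 and a Pearson correlation of 0.825. Within single library sets the Spearman correlation was 0.360 to 0.784, with a median of 0.593. The points share 1 sequenced population, 1 thinned depth and their library sets, and the value is a description. Without the 9 cells above 10000 CPM, of which 4 were deep enough for thinning, it was 0.638.

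Among the granule products, Itln1 (0.647) and Lyz1 (0.636) were closest to the family, followed by Lyz2 (0.512), the lysozyme also made by macrophages, Clps (0.383), which encodes colipase, and Mmp7 (0.354), the protease that activates the alpha-defensins. Lyz1 and Lyz2 are close copies, so their separate counts are uncertain. Ang4, an antimicrobial ribonuclease, lay at 0.330, Mptx2, a mucosal pentraxin, at 0.313 and Pla2g2a, a secreted phospholipase, at 0.225. The antimicrobial lectins Reg3b and Reg3g, which enterocytes also make, lay at 0.153 and 0.0789, although they had a count in 99.5% and 95.3% of cells. Habp2, Pnliprp2 and Mptx1 lay at 0.110, 0.0979 and 0.0357.

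The transcription factors of the Paneth and secretory lineage lay between −0.121 and 0.0464. Sox9, a transcription factor needed for Paneth cells, lay at 0.0464, Xbp1, a factor of the secretory pathway, at −0.0452, Spdef at −0.0102, Atoh1, which starts the secretory lineage, at −0.121, and Nod2, a sensor of bacterial cell walls, at −0.0306. Wnt3, a Wnt ligand that Paneth cells make, lay at −0.00432, and Gfi1, a transcription factor of the secretory lineage with 9 counts in all, at −0.00413. The potassium channel gene Kcnn4 lay at 0.0256 and the surface marker Cd24a at 0.138. Of all 22 Paneth cell genes other than defensins, 7 lay above 0.3, and their sum lay at 0.612. Sox9 had a count in 93.7% of cells and Xbp1 in 79.7%, and Atoh1 in 7.11%, where sparse counts limit any correlation. Summed lists of other cell types lay at 0.279 for goblet, 0.0368 for enteroendocrine, −0.0583 for enterocyte, 0.0428 for immune, and −0.0432 for stromal and endothelial genes. Apart from Spink4 in the goblet list, the single genes of other cell types named above lay between −0.103 (Fabp2) and 0.0948 (Chgb). The list of 6 crypt base stem cell genes lay at 0.191, with Lgr5 at 0.0995 and Olfm4, a glycoprotein that crypt base cells secrete, at 0.151. Ascl2, Smoc2, Axin2 and Slc12a2 lay at 0.118, 0.0915, 0.0827 and 0.0605.

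**Figure D3:**
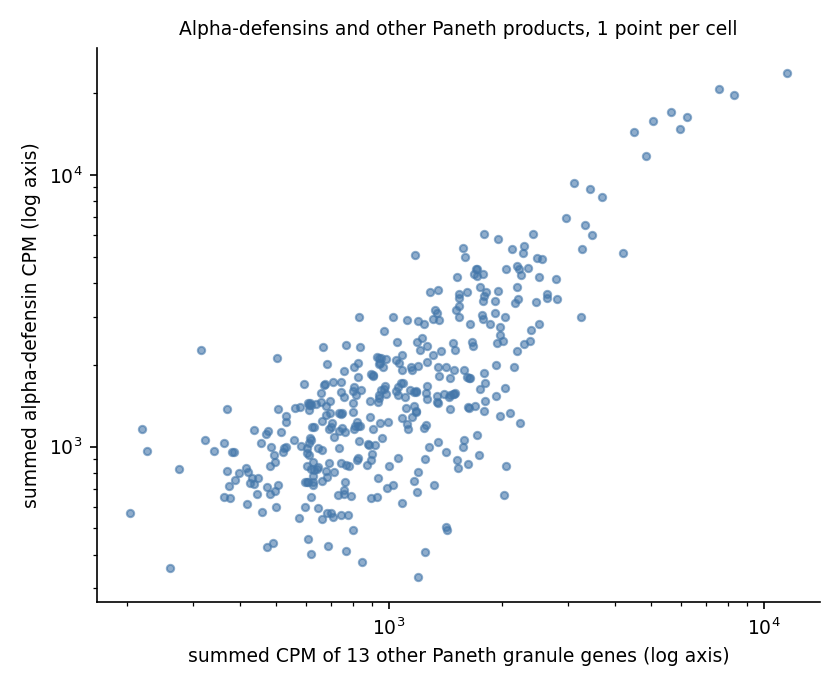
Summed alpha-defensin CPM against the summed CPM of 13 other Paneth granule genes, both on log axes, with 1 point for each of the 380 kept cells at full depth. The 9 cells above 10000 CPM of the family lie at 4493 to 11490 CPM of the other genes.

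Of 17196 genes found in 10% of kept cells or more, the 10 outside the family that varied most like it were led by its own unnamed relatives. AY761184 (Defa39 in RefSeq) had a Spearman correlation of 0.726 and Gm14851 (Defa38) of 0.704 over the thinned cells. Itln1, Lyz1 and Lyz2 came next, then Gm7849 (Defa42) at 0.497, Gm15292 (Defa40) at 0.462, Spink4 at 0.449, Clps, and Gm15293 (Defa41) at 0.380. Spink4, a secreted peptidase inhibitor found in goblet and Paneth cells, was the one gene of the 10 from the goblet list. Counts assigned between close copies can raise the correlations of the RefSeq-named relatives with the family, and their part was not tested. The median over all genes ranked was −0.00769, 99% of them lay below 0.143, and 15 lay above 0.3. Lgr5 ranked at position 733. AY761184 had a count in 98.9% of cells and 692 CPM per kb, and Gm14851 in 92.4% and 622 CPM per kb. With the 6 RefSeq genes counted in, the family averaged 2898 CPM and Defa24 held 22.5% of its counts.

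The members also varied with each other. Among the 13 members in at least 25% of cells, all 78 pairs had a positive Spearman correlation, with a median of 0.432 over all thinned cells and of 0.412 within library sets. The pairs ranged from 0.225 for Defa21 and Defa26 to 0.655 for Defa30 and Defa17. Defa30 and Defa24 lay at 0.629, and Defa17 and Defa24 at 0.609. Over the pairs, this correlation itself had a Spearman correlation of −0.0887 with the distance between the genes and of 0.382 with the identity of their transcripts. Counts assigned between near-identical copies can raise such values, and their part was not tested.

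To compare the members between cells poor and rich in other Paneth products, the thinned cells were ranked into tertiles of equal size. The ranking was by counts of the 13 granule products, a split chosen after the data were seen. Median granule counts were 11, 18 and 33 in the lowest, middle and highest tertile, and median family counts were 18, 27 and 51.5. Mean family counts were higher in the highest than in the lowest tertile in 10 of 10 library sets. The sets were spread unevenly, with 3 to 20 cells of a set in the lowest tertile and 6 to 21 in the highest. The pooled values here and below therefore mix differences between sets with differences between cells. The median number of members detected was 5, 7 and 11. Mean Lgr5 was 195.4, 203.4 and 215.7 CPM and mean Olfm4 165.6, 179.2 and 235.5 CPM, and median totals were 34941, 32516 and 32312 counts.

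The family was 3.20-fold higher in the highest than in the lowest tertile (counting interval 3.05 to 3.36), and 2.75-fold without the 4 thinned cells above 10000 CPM. Defa24 had the smallest ratio of the members described here, with 1604 counts in the highest and 974 in the lowest tertile, 1.65-fold (1.52 to 1.79). Defa30 had 1240 and 533 counts, 2.33-fold (2.10 to 2.58). Both had been found in every cell at full depth, and their mean thinned counts in the highest tertile were 14.1 and 10.9.

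The members of lower level named next had larger ratios. Defa17 was 3.17-fold higher (2.78 to 3.63), Defa29 5.12-fold (4.13 to 6.41) and Defa3 5.48-fold (4.28 to 7.11). Defa31, with 10 counts in the lowest tertile, was 31.2-fold higher in the highest (16.7 to 65.7) and was found in 6.14%, 28.1% and 68.4% of cells from the lowest to the highest tertile. Without the 4 cells it was 25.1-fold. In counts, Defa24, Defa30 and Defa17 each rose by more than Defa31 from the lowest to the highest tertile. Defa23 was 10.6-fold, Defa25 10.1-fold, Defa27 15.8-fold and Defa26 4.48-fold higher. The transcripts of Defa31 and Defa23 are 100% identical over their aligned part, so their separate ratios are uncertain. The pseudogene Defa-ps10 had 41 counts in the highest tertile, 19 of them without the 4 cells, and 0 in the lowest, and no fold is given.

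The sparser members had few counts in the lowest tertile. Defa34 and Defa36 had 5 and 4 counts in the lowest tertile, and each of the 6 pseudogenes found in 5% of kept cells or more had at most 4. Members this sparse can pass that filter through the highest tertile alone, so no count or median over members is given. For comparison, Lgr5 was 1.18-fold (1.04 to 1.35), Olfm4 1.42-fold, Axin2, a Wnt target, 1.48-fold and Smoc2 1.06-fold higher in the highest tertile. The shares of members in the family's counts differed by tertile: Defa24 made up 44.1%, 38.3% and 22.7% of family counts from the lowest to the highest tertile, Defa31 0.452%, 1.91% and 4.41%, and Defa17 13.5%, 13.9% and 13.4%. No value in the table was above 36 counts, and Defa24 reached 33 before thinning. Whether this maximum lowers the ratio of Defa24 and its share in the highest tertile was not tested.

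**Figure D4:**
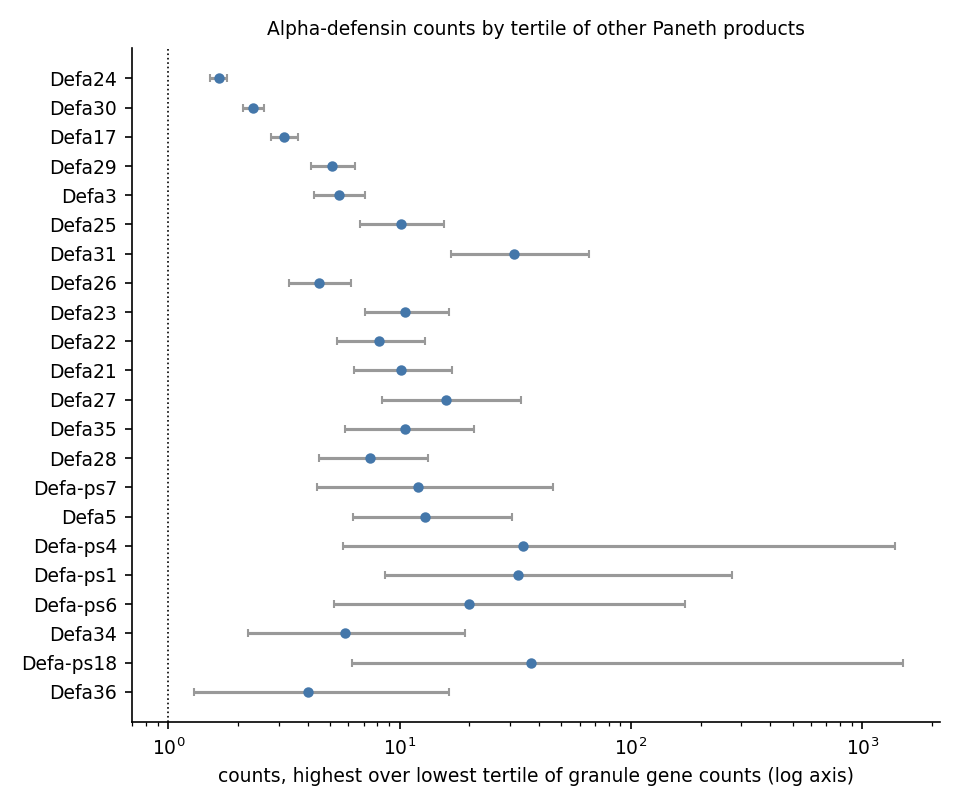
Ratio of summed thinned counts in the highest over the lowest tertile of granule gene counts (log axis) for 22 alpha-defensin genes, in order of CPM per kb from top to bottom. Points are ratios and bars 95% exact intervals for counting error, the dotted line marks 1, and Defa-ps10, at 0 in the lowest tertile, is left out. The ratio is 1.65 for Defa24, and the pseudogenes at the bottom rest on few counts: the 37.0 of Defa-ps18 is 37 counts over 1, with an interval of 6.24 to 1500, and is 19.7 without the 4 cells above 10000 CPM.

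In the genome, 29 of the 31 members lie within a 710 kb cluster on chromosome 8 (GRCm38, 21025545 to 21735471), and Defa-ps12 and Defa-ps13 lie outside it, at 19210462 and 19300677. Of those in the cluster, 27 lie on the plus strand and 2 on the minus strand, and Defa21 and Defa24 stand at its ends. The 3 leading members are not neighbours: Defa30 lies 521 kb from Defa17 and 599.9 kb from Defa24, and Defa17 lies 78.7 kb from Defa24. Between Defa30 and Defa17 stand members of much lower level, such as Defa2 at 5.16 CPM per kb and Defa33 at 0.578. AY761184, outside the rule and at 692 CPM per kb, lies between Defa17 and Defa24.

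**Figure D5:**
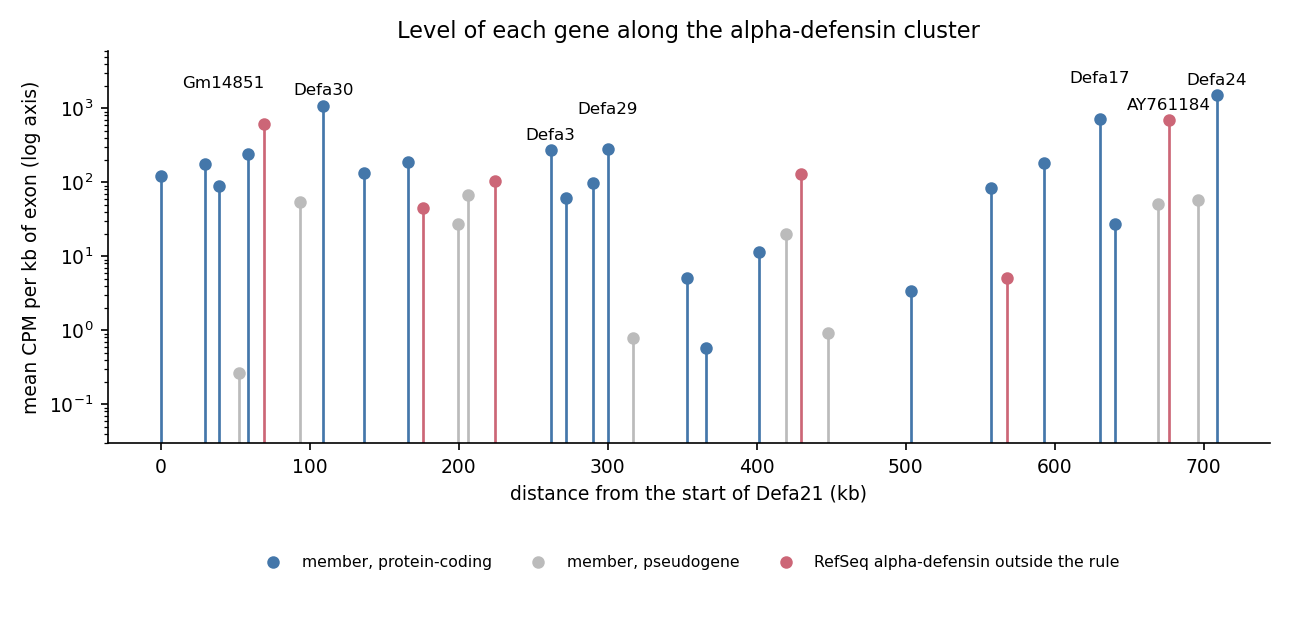
Mean CPM per kb of exon (log axis) of each gene of the chromosome 8 cluster against its distance in kb from the start of Defa21. Blue stems are protein-coding members, grey stems pseudogene members and red stems the 6 genes that RefSeq names alpha-defensins outside the rule. Genes above 250 CPM per kb are named, and Defa24, with the highest level, lies at the far end.

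Close copies limit how far the members' counts can be told apart. Across the 190 pairs of protein-coding members, transcripts were 72% to 100% identical over their aligned part, with a median of 85%, and 18 of the 20 had a partner at 95% or more. Defa24 and Defa30 were 98.2% identical, Defa17 and Defa3 99.7%, and Defa31 and Defa23 100%. Defa29 stood apart, at 80.3% to its nearest partner. Of all 50-base windows of a transcript, the share found in no other annotated gene was 71.9% for Defa24, 47.6% for Defa30, 56.6% for Defa29 and 59.8% for Defa26, but 8.05% for Defa17, 7.76% for Defa3, 5.25% for Defa23 and 0% for Defa31. Counts of Defa17 and Defa3, and of Defa31 and Defa23, are therefore uncertain as separate values. Among the 4 protein-coding members with no such window, Defa31 had 733 counts, Defa2 19, Defa32 14 and Defa33 2. In the RefSeq genes outside the rule, the share of windows found in no other annotated gene was 66.5% for AY761184 and 62.8% for Gm15292. It was 44.4% for Gm14851, 43.9% for Gm15293, 2.41% for Gm7861 and 0% for Gm7849. With which genes their other windows are shared is not given here. Over the 20 protein-coding members, the share of unique windows and the counts had a Spearman correlation of 0.569.

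Promoters were examined because the members varied together. RefSeq (GRCm38.p6) gave a window from 250 bases before to 50 after the start for 10 of the 31 members, and Defa24 and Defa17 were not among them. Defa30, the highest member with one, and Defa31 are shown with Defa38 (Gm14851), which lacks the first motif. Defa23, whose counts are uncertain as separate from those of Defa31, has the same promoter sequence as Defa31. Capitals mark matches of CTTTGAT, the core of the motif bound by Tcf and Lef factors of the Wnt pathway, read here as ATCAAAG on the gene's strand, and of TATAAA, the TATA box.
Defa30 (chr8:21134400-21134699, plus strand): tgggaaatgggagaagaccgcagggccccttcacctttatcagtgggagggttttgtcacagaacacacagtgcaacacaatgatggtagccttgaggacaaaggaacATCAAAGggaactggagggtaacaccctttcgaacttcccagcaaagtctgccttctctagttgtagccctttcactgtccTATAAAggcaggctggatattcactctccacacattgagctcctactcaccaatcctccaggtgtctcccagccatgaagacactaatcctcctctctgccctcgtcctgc
Defa31 (chr8:21191323-21191622, plus strand): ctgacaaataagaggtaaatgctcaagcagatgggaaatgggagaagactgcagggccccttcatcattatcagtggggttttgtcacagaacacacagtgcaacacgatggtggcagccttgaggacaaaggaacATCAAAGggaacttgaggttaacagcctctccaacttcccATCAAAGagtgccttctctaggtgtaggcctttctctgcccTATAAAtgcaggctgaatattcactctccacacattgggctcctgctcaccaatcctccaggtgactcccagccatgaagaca
Defa38 (chr8:21096001-21096300, minus strand): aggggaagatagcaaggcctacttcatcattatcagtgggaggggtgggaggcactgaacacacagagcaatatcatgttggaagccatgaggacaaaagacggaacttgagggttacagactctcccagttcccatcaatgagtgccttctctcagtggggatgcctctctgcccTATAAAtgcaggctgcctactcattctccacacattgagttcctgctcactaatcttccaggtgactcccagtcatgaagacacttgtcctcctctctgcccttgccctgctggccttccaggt
CTTTGAT on either strand was found in 10 of the 10 member promoters and in 3.73% of all 32851 promoter windows of the same length. Of 6 other alpha-defensin promoters by RefSeq name, 3 held it (Defa20, Defa37 and Defa41), and Defa38, Defa42 and Defa43 did not. These are not the same 6 genes as those named at the start. Defa39 and Defa40 had no window, and Defa20 and Defa37 are not described elsewhere here. TATAAA on either strand was found in 9 of the 10, Defa28 being the exception, in all 6 others, and in 13.6% of all windows. No match printed above overlaps another. Member promoters were 79.1% to 91.4% identical to that of Defa30, so these are not independent observations. Defa31 held CTTTGAT 2 times, as did Defa2, Defa21, Defa22, Defa23, Defa32 and Defa35. Defa30 held it 1 time, as did Defa28 and Defa36. Whether the number of matches goes with the level of a member was not tested.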

How the data were processed

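The authors deposited 1 table of whole-number counts, not normalized, for single Lgr5-high cells. Per the labels' protocols, cells were captured on a microfluidic chip and cDNA was made with a SMARTer kit. Per the submitters' processing notes the genome was GRCm38.p4. For the aligner, the counter, the annotation, strand and molecular identifiers, details were not given in the sources used here. GENCODE M21, on GRCm38, gave symbols and positions and named 33219 of 33496 rows. RefSeq gave promoters and further names, matched by position.

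CPM was computed here from all counts of a cell, in cells with at least 10000 counts. Cells were thinned without replacement to 19169 counts, the 10th percentile, which left out 38 cells. Doublets were not removed. Shares have exact Clopper-Pearson intervals at 95%. The ratio of 2 count sums has the exact binomial interval of the counts. Steps between neighbouring members were called larger than their spread where the mean difference over sets exceeded its SD. Named genes were all members (those under 5% of cells by range), all genes of the marker lists (1 gene, and the sum of its list, is not reported here), and the 10 outside genes with the highest Spearman correlation with the family. The members and lists were chosen with earlier results of these data known. The ranking of genes was tested on simulated data. Alternatives changed the cell filter, the library sets, the total, the thinning and the member list. Python 3.11.15, numpy 2.4.6, pandas 2.3.3, scipy 1.17.1 and Biopython 1.88 were used.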

Additional observations from a re-analysis of the deposited data

How the results depend on the processing

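The 5 main values were recomputed under 16 to 21 alternatives each. The family level of 2206 CPM was 1442 CPM as a median over cells and 3503 CPM with the total taken over genes of mean count under 5. The share of Defa24, 29.7%, was 39.8% as a mean over cells and 22.5% with the 6 RefSeq genes added. The share of family counts in the top 10% of cells, 30.8%, was 44.4% without Defa24 and Defa30 and 25.5% without the cells above 10000 CPM. The correlation with the granule products, 0.650, was 0.494 over all 400 cells thinned to the lowest total. The causes were not tested. Other alternatives moved these values by less than 1 SD over sets, and the share of cells stayed at 100% in all 16. Leaving out each library set in turn gave 2111 to 2339 CPM, 100% of cells, 29.02% to 30.5%, 30.1% to 31.1%, and a correlation of 0.630 to 0.676. Another 20 draws of the thinning gave 0.613 to 0.654. The alternatives with the RefSeq genes, without library sets 4 and 5, without Defa24 and Defa30, without the cells above 10000 CPM and with other draws were chosen after the data were seen. No paired analysis was possible because all cells belong to 1 group. Depth limits the members with few counts.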
